A study of Bubalus bubalis with 8 samples.

Results

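The genes described here were those first listed at a clear level in the morula of water buffalo (Bubalus bubalis) embryos made by parthenogenetic activation. They were chosen by their measured FPKM, a fragment count scaled by transcript length and library size. An ID was taken when it was under 1 FPKM in all 5 libraries up to and including the 8-cell stage, under 10 FPKM at the 16-cell stage and at least 10 FPKM in the morula. Numbered IDs, written as gene plus a number, made up 18220 lines of the table, of which 144 met the rule, and all 144 are described. They are called morula-onset IDs for this limit of 10 FPKM alone, since lower values in earlier libraries were allowed. The whole table held 28659 IDs, of which 10439 were named by the authors as new genes and were not eligible.

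The study followed transcripts through 8 stages with 1 library each: the immature oocyte at the germinal vesicle stage (GV), the mature oocyte in metaphase II (MII), 2-cell, 4-cell, 8-cell and 16-cell embryos, the morula and the blastocyst. All embryos were parthenogenetic, so they carried no paternal genome, and all were described as obtained in vitro. The sources used here do not give the number of oocytes or embryos per library, and the RNA extraction text in the labels speaks of a different tissue. With 1 library per stage there was no replicate error and no test between stages, and a difference of stage cannot be told apart from a difference of library.

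A fertilised or activated egg first lives on transcripts stored by the oocyte, and its own genome is switched on in steps during cleavage. In the morula the cells flatten against each other in compaction, build junctions and take up inner or outer positions. Outer cells go on to form the trophectoderm, the epithelium that pumps fluid into the blastocyst cavity, and inner cells form the inner cell mass. Transcripts that first appear in the morula therefore lie between the main activation of the genome and the first visible split of lineages. The table pairs no ID with a gene name, so the roles of these 144 IDs, and the markers of trophectoderm, inner cell mass, oocyte or cumulus cells, could not be read here.

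In the 5 earliest libraries most of the 144 IDs were at or close to 0. The median over the 144 IDs was 0.0194 FPKM at GV and 0.00611 FPKM at the 2-cell stage, and it was lower still at MII and at the 4-cell and 8-cell stages. Exact zeros numbered 67 at GV, 91 at MII, 70 at the 2-cell, 69 at the 4-cell and 72 at the 8-cell stage. The MII library thus had the most zeros of these 5 libraries, and it also had the most over all numbered IDs, 3993 of 18220. A value above 0 was listed in all 5 libraries for 29 IDs, in 1 to 4 of them for 87 and in none for 28.

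In the 16-cell library the same 144 IDs were higher, with a median of 2.05 FPKM and an interquartile range of 0.327 to 4.82 FPKM. The rule set only the ceiling of 10 FPKM there. Between 1 and 10 FPKM lay 90 IDs (62.5%), 31 were above 0 and under 1 FPKM, and 23 were listed at 0. The 16-cell value was above every one of the earlier 5 values for 106 of the 144 (73.6%), against 53.7% of the 4862 numbered IDs that met the same limits up to the 16-cell stage but stayed under 10 FPKM in the morula. Taking FPKM plus 1 on a log2 scale, 44 IDs were at least 4-fold higher in the 16-cell than in the 8-cell library, against 6.56% of those 4862 IDs. For most of these IDs the morula was therefore the first library at 10 FPKM but not the first with a signal above 1 FPKM.

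**Figure D1:**
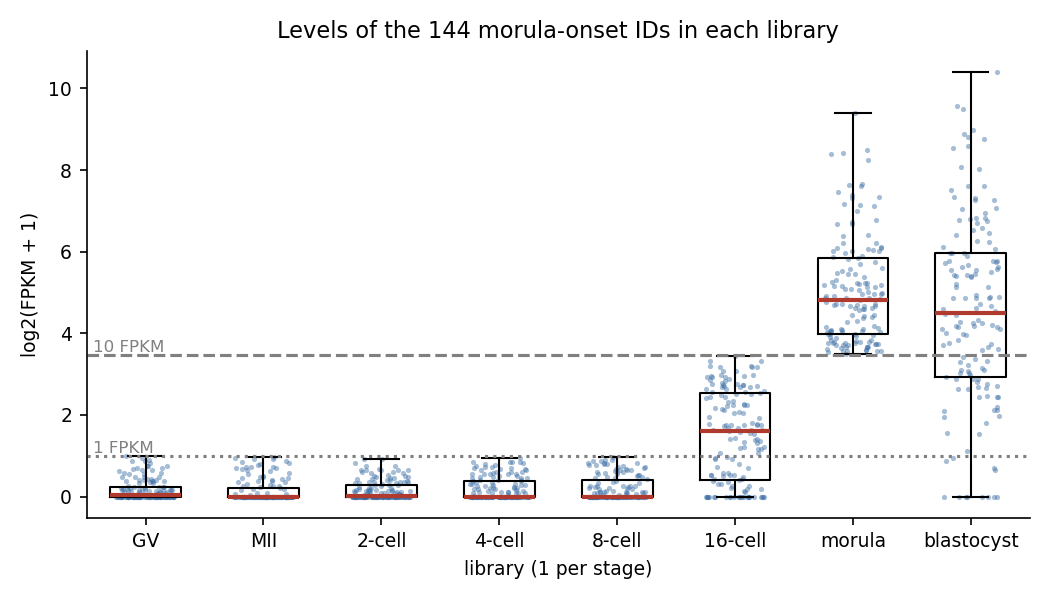
Each point is 1 of the 144 numbered IDs, the x axis gives the 8 libraries in stage order and the y axis log2(FPKM + 1). Boxes span the interquartile range with the median in red, whiskers reach the lowest and highest ID, and the lines at 1 and 10 FPKM are the limits of the rule. The 16-cell library has a median of 2.05 FPKM, above those of the 5 early libraries, and lies below the morula as the rule requires. The blastocyst spans from 0 to 1354 FPKM.

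The 16-cell level was also higher in these IDs than in other numbered IDs that had stayed under the same 1 FPKM limit before. The 4862 comparison IDs were under 1 FPKM up to the 8-cell stage and under 10 FPKM in the 16-cell and morula libraries. Their 16-cell median was 0.213 FPKM, and 25.2% of them lay between 1 and 10 FPKM, against 62.5% of the morula-onset IDs. The share that reached 10 FPKM in the morula rose with the 16-cell level only from 1 FPKM up. It was 1.44% of the 1600 IDs listed at 0 in the 16-cell library and 1.48% of the 2091 IDs above 0 and under 1 FPKM. It was 4.96% of the 1128 IDs at 1 to 5 FPKM and 18.2% of the 187 IDs at 5 to 10 FPKM. Earlier traces separated the groups less. No early library was above 0 for 19.4% of the morula-onset IDs and for 20.1% of the comparison IDs. A value of at least 0.1 FPKM, however, was listed in an early library for 73.6% and 63.0%. The highest early value per ID had a median of 0.402 and 0.180 FPKM, so the groups were not matched on early level. These shares describe IDs within single libraries, and the 16-cell and morula values both entered the rule, so no test was made.

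In the morula the 144 IDs had a median of 27.4 FPKM, with an interquartile range of 14.9 to 56.1 FPKM and a range of 10.2 to 673 FPKM. Most were of modest level. Between 10 and 20 FPKM lay 53 IDs, between 20 and 50 FPKM 52 IDs and at 50 FPKM or more 39 IDs, 20 of them at 100 FPKM or more. Numbered IDs at 10 FPKM or more in the morula, 5737 in all, had a median of 46.9 FPKM. The morula-onset IDs together held 0.312% of the FPKM sum of the morula library, up from 0.0338% in the 16-cell library and from 0.00178% to 0.00292% in the 5 earlier ones. The rise over the 16-cell library was 4-fold or more, 2 on the log2(FPKM + 1) scale, for 116 of the 144 IDs. Of the 7192 numbered IDs at 10 FPKM or more in either library, 1372 (19.1%) passed this limit. Those 7192 included IDs at 10 FPKM or more in the 16-cell library only, while all 144 were at 10 FPKM or more in the morula. The rule set limits in the morula and all earlier libraries. The rise in FPKM share thus follows from the choice, and the count of 116 is a description. For the other 28 IDs the rise was under 4-fold, and the lowest log2 difference was 0.33.

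The limits cut through a continuous range of values. There were 14 members at 10.2 to 11.8 FPKM in the morula, and 30 otherwise matching IDs lay at 8.01 to 9.98 FPKM. In the 16-cell library 5 members lay at 8.17 to 9.87 FPKM, and 11 otherwise matching IDs lay at 10.5 to 11.9 FPKM. The highest early value was 0.809 to 0.989 FPKM for 20 members and 1.00 to 1.17 FPKM for 16 IDs just outside.

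One early library stood apart in how many IDs it kept out of the group. With the 4-cell limit as the sole one broken, 75 numbered IDs were excluded, against 13 by the GV limit, 7 by the MII limit, 9 by the 2-cell limit and 11 by the 8-cell limit. These 75 IDs had 1.00 to 362 FPKM in the 4-cell library with a median of 4.50 FPKM, and 25 of them were at 10 FPKM or more there. Their median was 0.198 FPKM in the 8-cell library and 0.158 FPKM in the 16-cell library, before it reached 57.5 FPKM in the morula. This set had to have at least 1 FPKM in the 4-cell library and under 1 FPKM in the 8-cell library. It also had to be under 10 FPKM in the 16-cell library and at least 10 FPKM in the morula. The fall and the later rise thus follow from the choice, and this set was looked at after its size was seen. In the blastocyst 61 of the 75 (81.3%) were at 10 FPKM or more, and 1 was under 1 FPKM. Over all 5737 numbered IDs at 10 FPKM or more in the morula, these shares were 84.2% and 0.872%. The 75 IDs also had a higher morula median than the 144, 57.5 against 27.4 FPKM. With 1 library at the 4-cell stage, a short pulse of transcripts and a feature of that library cannot be told apart. The 16-cell limit alone excluded 77 IDs, which had 10.5 to 482 FPKM there.

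**Figure D2:**
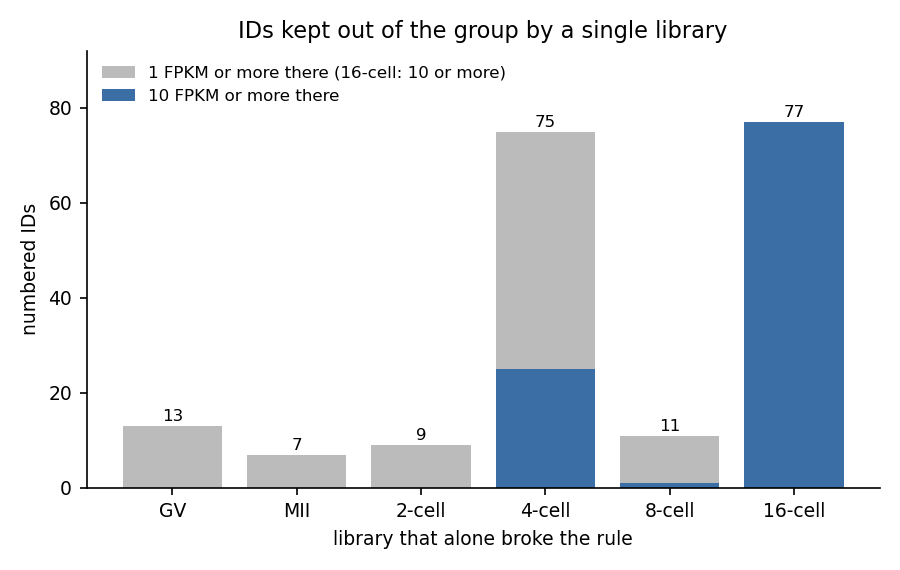
Bars give the number of numbered IDs that met every other part of the rule but broke the limit in the 1 library named on the x axis. The blue part counts those at 10 FPKM or more in that library, and the limit is 1 FPKM in the 5 early libraries and 10 FPKM in the 16-cell library. The 4-cell bar, at 75 IDs, is higher than the bars of the other 4 early libraries, which reach 7 to 13 IDs.

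The blastocyst was the only library the rule did not use. There, 95 of the 144 IDs (66.0%) were still at 10 FPKM or more, 37 (25.7%) lay at 1 to 10 FPKM and 12 (8.33%) were under 1 FPKM, 8 of them listed at 0. Over all 5737 numbered IDs at 10 FPKM or more in the morula, 84.2% were at 10 FPKM or more in the blastocyst and 0.872% were under 1 FPKM. In these 2 libraries the share at 10 FPKM or more was thus lower, and the share under 1 FPKM higher, for the morula-onset IDs than for numbered IDs in general. With 1 library per stage this difference has no test. The morula-onset IDs were chosen for a high value in the morula library after low ones. Of the 5737 IDs, 3977 were at 10 FPKM or more in the GV library too. How far that choice enters these shares, here and in the bands of morula level below, was not tested. The median of the 144 IDs was 21.8 FPKM in the blastocyst, with an interquartile range of 6.57 to 62.1 FPKM. Fewer cells that carry a transcript and less of it per cell cannot be told apart in such whole-sample values.

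The share kept depended on the morula level, so the groups were also compared within bands of it. Within 10 to 20 FPKM in the morula, 43.4% of the 53 morula-onset IDs and 54.4% of the 1292 other numbered IDs were at 10 FPKM or more in the blastocyst. Within 20 to 50 FPKM the shares were 69.2% of 52 and 84.6% of 1563, and at 50 FPKM or more they were 92.3% of 39 and 98.9% of 2738. The morula-onset share was the lower one in each of these 3 bands, by 6.56 to 15.4 percentage points. IDs under 1 FPKM in the blastocyst made up 9.43%, 11.5% and 2.56% of the morula-onset IDs in the 3 bands, and 1.55%, 0.704% and 0.256% of the other IDs. The bands did not make the levels equal: the median morula value was 12.9 FPKM for the morula-onset and 14.2 FPKM for the other IDs in the lowest band, 30.1 and 30.6 FPKM in the middle one, and 101 and 177 FPKM in the highest.

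IDs that had come on a stage earlier had shares close to these in all and in the 2 lower bands, and a lower one in the highest band. Of the 228 numbered IDs under 1 FPKM up to the 8-cell stage and at 10 FPKM or more in the 16-cell library, 77 were also at 10 FPKM or more in the morula, and 51 of the 77 (66.2%) were so in the blastocyst. In the 3 bands of morula level their shares were 42.9% of 21, 71.0% of 31 and 80.0% of 25. Under 1 FPKM in the blastocyst were 5 of the 77 (6.49%), against 8.33% of the morula-onset IDs, and in the 3 bands 4.76%, 6.45% and 8.00%. IDs that GV oocytes already held at 10 FPKM or more had higher shares, with 3543 of 3977 (89.1%) in all and 57.5%, 85.9% and 99.5% in the 3 bands. From the library of onset to the next, 95 of 144 morula-onset IDs (66.0%) and 77 of 228 16-cell-onset IDs (33.8%) remained at 10 FPKM or more. These are different steps between different libraries, and the values are set side by side without a test.

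**Figure D3:**
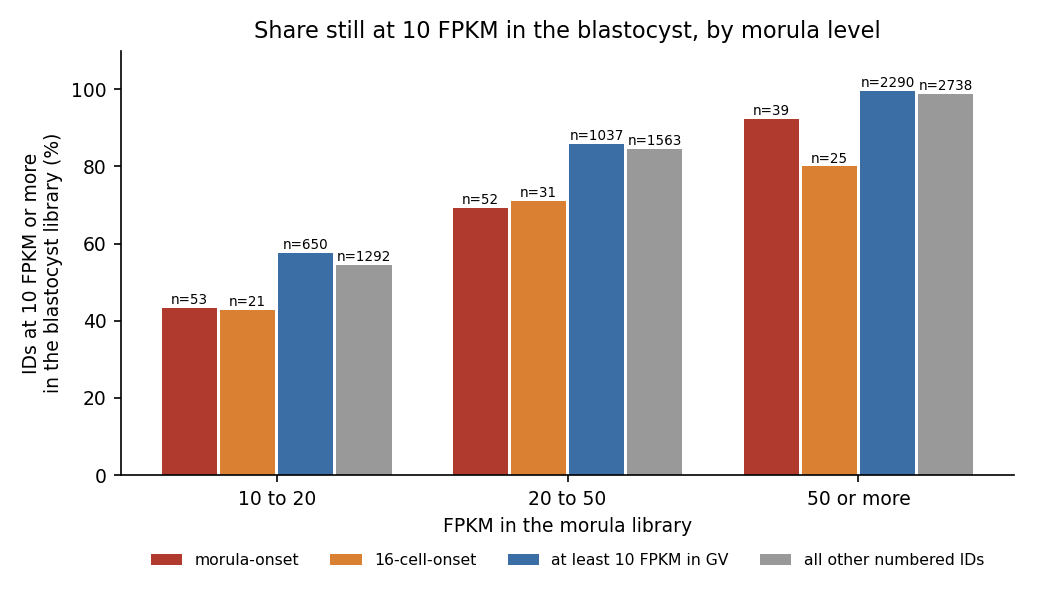
Bars show the percentage of numbered IDs at 10 FPKM or more in the blastocyst library, by FPKM in the morula library on the x axis, and n is the number of IDs behind each bar. The morula-onset bars (43.4%, 69.2% and 92.3%) are below the bars of IDs at 10 FPKM or more at GV (57.5%, 85.9% and 99.5%) in each band. There is 1 library per stage, so the bars have no error.

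From the morula to the blastocyst, larger shares of the morula-onset IDs than of all numbered IDs differed by 4-fold or more in either direction. A blastocyst value at least 4-fold higher, again with 1 added to each FPKM, was found for 13 of 144 IDs (9.03%), against 3.19% of the 5737 numbered IDs. A value at least 4-fold lower was found for 26 IDs (18.1%), against 6.94%. The 77 IDs that came on at the 16-cell stage and were at 10 FPKM or more in the morula had a like share of lower values, 15 of 77 (19.5%), and 3 higher ones (3.90%). The remaining 105 IDs (72.9%) differed by less than 4-fold, against 89.9% of all. The median log2 difference was -0.42 for the morula-onset IDs and -0.55 for all. The morula value chose the members and is part of this difference. In plain order, 52 of the 144 IDs (36.1%) were higher in the blastocyst than in the morula, against 29.3% of all.

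The 13 IDs that were higher in the blastocyst had 10.8 to 158 FPKM in the morula (median 23.4) and 62.1 to 1354 FPKM in the blastocyst (median 159), and 11 of them were at 100 FPKM or more. The greatest increase was that of gene26549. Its FPKM was 0.468 at GV, 0.644 at MII, 0.891 at 2 cells, 0 at 4 cells, 0.523 at 8 cells and 0 at 16 cells, then 34.9 in the morula and 1354 in the blastocyst. Its blastocyst value was 38.8 times its morula value and was the highest of the 144 IDs there. Traces under 1 FPKM were listed in 4 of the 6 libraries before the morula, with no order by stage.

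The second greatest increase was that of gene415. Its FPKM was 0 at GV, at MII, at 2 cells and at 4 cells, 0.429 at 8 cells, 0 at 16 cells, 12.7 in the morula and 385 in the blastocyst. Its last value was 30.3 times the morula value. In the morula this ID was near the lower limit, at rank 119 of 144, and in the blastocyst it was at rank 8 of 144. For both IDs the morula was the first library above 1 FPKM and the blastocyst the highest.

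The 26 IDs that were lower had 11.3 to 673 FPKM in the morula (median 30.5) and a median of 1.53 FPKM in the blastocyst. They included the most abundant of the 144 IDs in the morula, which had 673 FPKM there and 112 FPKM in the blastocyst. The greatest decrease was that of gene15564. Its FPKM was 0.474 at GV, 0 at MII, 0.259 at 2 cells, 0 at 4 cells, 0 at 8 cells, 2.03 at 16 cells, 47.7 in the morula and 0 in the blastocyst. Next came gene13200, listed at 38.3 FPKM in the morula and at 0 in each of the other 7 libraries. No fold is given for either, since the blastocyst value was 0 and the depth is unknown. The 8 IDs listed at 0 in the blastocyst had 11.3 to 47.7 FPKM in the morula. At least 4-fold above both the 16-cell and the blastocyst library were 22 of the 144 IDs, against 1.88% of the 5737 numbered IDs. The rule used the 16-cell and morula values, so this count is a description.

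**Figure D4:**
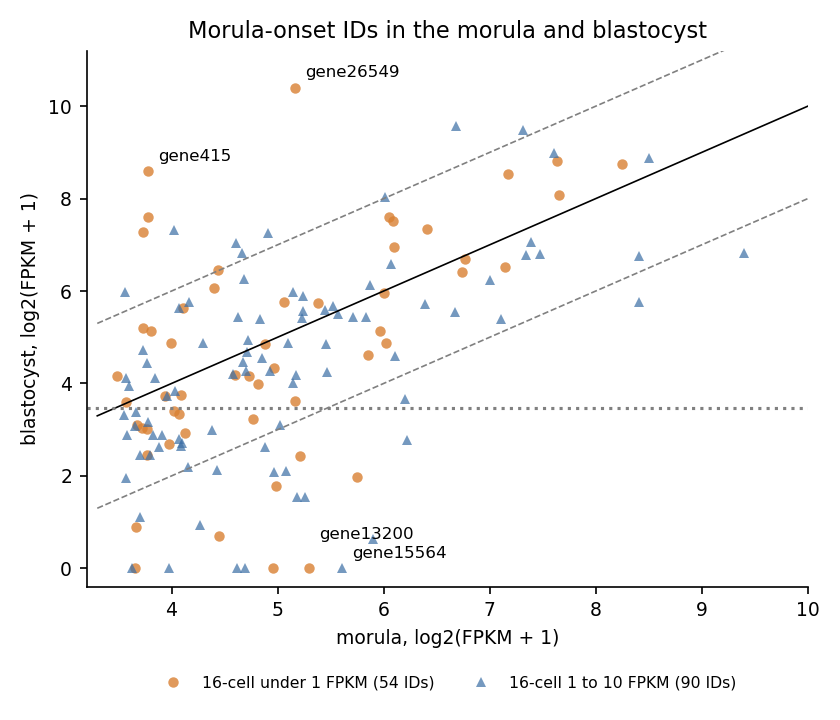
Each point is 1 of the 144 IDs, with log2(FPKM + 1) in the morula on the x axis and in the blastocyst on the y axis, and its shape gives the 16-cell level. The solid line marks equal values, the dashed lines 4-fold differences and the dotted line 10 FPKM in the blastocyst. There are 13 IDs on or above the upper dashed line and 26 on or below the lower one, and the 4 named IDs are labelled.

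Blastocyst shares were similar for IDs under 1 FPKM and for IDs at 1 to 10 FPKM in the 16-cell library. Of the 54 IDs under 1 FPKM in the 16-cell library, 37 (68.5%) were at 10 FPKM or more in the blastocyst and 5 were under 1 FPKM. Of the 90 IDs at 1 to 10 FPKM, 58 (64.4%) were at 10 FPKM or more and 7 were under 1 FPKM. The 54 were not alike within: of the 23 among them listed at 0 in the 16-cell library, 18 (78.3%) were at 10 FPKM or more. Spearman's rho across the 144 IDs, a description of IDs that share these libraries, was -0.07 between the 16-cell and blastocyst values and -0.04 between the 16-cell and morula values. It was 0.50 between the morula and blastocyst values, against 0.82 across the 5737 numbered IDs. The sets also differed in morula level, with a median of 27.4 against 46.9 FPKM. How far this enters the difference in rho was not tested.

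The IDs were also divided by whether a trace was listed before the 16-cell stage. The 28 IDs listed at 0 in all 5 early libraries included 5 that were at least 4-fold higher in the blastocyst (17.9%) and 8 that were at least 4-fold lower (28.6%). Of the 116 IDs with an early value above 0, 8 were higher (6.90%) and 18 lower (15.5%). The share at 10 FPKM or more in the blastocyst was 71.4% of the 28 and 64.7% of the 116. With counts this small the 2 groups are given side by side and no difference is claimed.

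As a group, the 144 IDs held a larger part of the blastocyst library (0.489% of its FPKM sum) than of the morula library (0.312%), although the median ID was lower in the blastocyst. The 10 most abundant of them made up 52.3% of the group's sum in the blastocyst and 37.8% in the morula, and 5 IDs were among the 10 in both libraries. At 100 FPKM or more there were 20 IDs in the morula against 27 in the blastocyst. The FPKM sums of the 2 libraries, 2501130 and 2239890, were close to each other and about double that of the 16-cell library, 1162570. Scaling therefore bears on which IDs meet the rule. After rescaling all libraries to 1 common sum, 85 IDs met it, 76 of them among the 144, and with median-of-ratios scaling 158 met it, 143 of them among the 144. The share of IDs listed at exactly 0, over the whole table, was 18.4% in the 16-cell library, 48.7% in the morula and 45.7% in the blastocyst. Among the 18220 numbered IDs, the only ones eligible, 2215, 5477 and 4468 were listed at 0 in these 3 libraries. How far that difference between libraries enters the rule was not tested.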

How the data were processed

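Values were deposited by the authors as FPKM, a unit taken from the name of their table, with 1 column per library. Columns were matched to samples by the description label and to stages by the title. The aligner, counter, genome build and filters were not given in the sources used here. Values were used as deposited, on the scale log2(FPKM + 1) for differences, so folds of low IDs are understated, and a difference of 2 log2 units was the limit for higher or lower. Sequencing depth is unknown, so no counting interval or floor is given, and 0 means listed at 0. Some values above 0 were under 0.001 FPKM and were kept as listed. Of the 28659 IDs, 0 matched a RefSeq gene table of buffalo, so no gene list was scored and no sequence is shown. The members were chosen with earlier results of these data known. The named IDs were the 2 members with the greatest increase and the 2 with the greatest decrease from morula to blastocyst. The code that applies the rule was checked on simulated data with planted members. All planted members lay inside the limits, so the choice of limits was not tested this way. Alternatives were other limits of the rule, leaving a library out of the rule, 2 scalings, a pseudocount of 0.1 and the inclusion of new-gene IDs. Python 3.11.15, pandas 2.3.3 and scipy 1.17.1 were used.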

Additional observations from a re-analysis of the deposited data

How the results depend on the processing

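The number of IDs that met the rule depended on its limits. It was 85 with libraries rescaled to the same sum, 84 and 221 with an early ceiling of 0.5 and 2 FPKM, 54 with a 16-cell ceiling of 1 FPKM, 288 and 65 with a morula minimum of 5 and 30 FPKM, 219 without the 4-cell library in the rule and 221 without the 16-cell library. The other 7 of 15 alternatives stayed within 1.5 times of 144. The share at 10 FPKM or more in the blastocyst was 45.8% and 81.5% with the morula minimum of 5 and 30 FPKM, and with the blastocyst limit set to 5 and 20 FPKM it was 81.9% and 51.4%. It stayed between 61.9% and 71.2% in the other 13 alternatives. The share at least 4-fold lower was 25.3% with new-gene IDs included and lower, down to 14.8%, in the other 15, and the share at least 4-fold higher was 6.15% to 10.1% in all 16. More IDs were lower than higher in each alternative run. Rescaling moved the median difference over the 5737 numbered IDs from -0.55 to -0.38, and median-of-ratios scaling moved it to -0.43. No paired analysis was possible because there is 1 library per stage, and no replicate could be left out. Unknown depth limits what values near 0 can show.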

Other observations

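The IDs that the authors named as new genes were not eligible, but 42 of the 10439 met the same limits. Of these 42, 21 were at 10 FPKM or more in the blastocyst and 16 (38.1%) were under 1 FPKM, 12 of them listed at 0. Among the 144 numbered IDs, 95 were at 10 FPKM or more and 12 (8.33%) under 1 FPKM. At least 4-fold lower in the blastocyst than in the morula were 21 of the 42 new-gene IDs, and 2 were at least 4-fold higher. Over all 229 new-gene IDs at 10 FPKM or more in the morula, 64.6% were at 10 FPKM or more in the blastocyst, 14.4% were under 1 FPKM, 24.0% were at least 4-fold lower and 2.18% at least 4-fold higher. The 42 IDs had a median of 23.9 FPKM in the morula and 10.2 FPKM in the blastocyst.

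A further 166 numbered IDs were under 1 FPKM up to the 8-cell stage and under 10 FPKM in the 16-cell and morula libraries, and reached 10 FPKM in the blastocyst. They were 3.41% of the 4862 IDs that were still under 10 FPKM in the morula. More numbered IDs thus passed 10 FPKM for the first time in the 16-cell library (228) than in the morula (144) or the blastocyst (166), among IDs under 1 FPKM up to the 8-cell stage. The 144 were 2.88% of the 5006 such IDs still under 10 FPKM in the 16-cell library. Of the 228, 83 were under 1 FPKM in the morula. The libraries differ in FPKM sum, and rescaling to the same sum gave 85 IDs in place of the 144. How the ranking depends on scaling was not tested.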
